A study of Mus musculus with 2 samples.

Results

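The genes described here are 30 genes of cholesterol synthesis, uptake, transport, efflux and storage, chosen by their known function. Of these, 28 had a probe set that named exactly 1 gene, among 19938 genes with such a value. Acat2, the thiolase of the first step, and Soat1, which esterifies cholesterol for storage, had none and are not analysed here. Transcripts were measured with 2 microarrays, 1 per genotype, in PDGFRα+ cells, fibroblast-like cells that include adipocyte precursors, sorted from the stromal vascular fraction (the non-adipocyte cells) of inguinal white fat. The cells came from female Sox9 PreASKO mice and female Sox9 floxed mice, both 6 weeks old and both given doxycycline at postnatal day 1, so the controls carried the floxed allele and received the drug too. The driver of the deletion in PreASKO mice, and whether floxed mice carry it, are not given in the sources used here. Each group was 1 array of RNA pooled from 3 mice, so no difference below has a replicate, an error or a test.

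Cells build cholesterol from acetyl-CoA through the mevalonate pathway, which runs over isoprenoid intermediates to squalene and then to sterols. The transcription factor SREBP2 switches on the enzymes of this pathway when membranes run short of cholesterol, after its escort protein SCAP is released from the INSIG anchors of the endoplasmic reticulum. Surplus cholesterol is stored as esters or leaves the cell through transporters such as ABCA1, whose gene is a target of the oxysterol-sensing LXR receptors. In fat tissue, stromal cells and macrophages both take part in this exchange of sterol with lipoproteins.

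All values are the deposited ones on the log2 scale, and all differences are PreASKO minus floxed on that scale. A difference of 0.585 is 1.5-fold, the limit named by the series itself. As a mark of background, the 95th percentile of 1027 olfactory receptor genes was taken, 4.64 on the array where it was higher. A level compares the same probe set between arrays and is not used to rank genes against each other. Sox9 was at 4.97 in the PreASKO array and 5.25 in the floxed array, less than 1.5-fold apart. Both values were above the mark but under 5.43, which only 1% of these olfactory receptor genes exceeded in the floxed array. This probe set was therefore dim, and its small difference does not show how far Sox9 was lost. The defining markers of the labelled cell type were present: Pdgfra was at 9.55 in PreASKO and 9.86 in floxed cells, and all 9 measured stromal markers had values of at least 8.48, far above background, in both arrays. Macrophage markers were also above background in both arrays. The lowest in PreASKO was Cx3cr1, at 5.80 there and 6.40 in floxed cells. The lowest in floxed cells was Mpeg1, at 5.54 there and 5.90 in PreASKO. The highest in both arrays, the lysozyme gene Lyz2, was at 11.46 in PreASKO and 11.04 in floxed cells.

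Most cholesterol genes were slightly higher in PreASKO cells, and few by much. Of the 28 measured genes 21 were higher and 7 lower (75.0% higher), where 48.2% of all genes were higher. Their median difference was 0.11, against 0 over all genes. Of the 9969 genes whose brighter array reached 5.18, a level that 26 of the 28 members reached, 54.2% were higher, with a median of 0.02. A gene can reach this level in only the array where it is higher. Tm7sf2, Mvk and Pmvk reached it only in PreASKO. Past the 1.5-fold limit there were 2 genes that were higher, Fdps and Tm7sf2, or 7.14% of the 28, where 1.66% of all genes were 1.5-fold higher. No member was 1.5-fold lower, where 1.98% of all genes were. Among the 9969 brighter genes 161 were 1.5-fold higher and 107 lower. In either direction 3.64% of all genes passed this limit. At a lower limit of 0.32 on the log2 scale, 5 members were higher (17.9%, against 9.46% of all genes), among them Lss, which was below background in both arrays. The only member lower by that limit was Stard5 (3.57%, against 9.86% of all genes). Among the 9969 brighter genes 9.69% were higher and 6.33% lower by that limit. The quartiles of the difference were 0.00 and 0.30 in the members and -0.16 and 0.16 over all genes, so the 2 distributions overlapped widely. A count of 2 genes from 1 array per group is a description of these arrays.

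**Figure D1:**
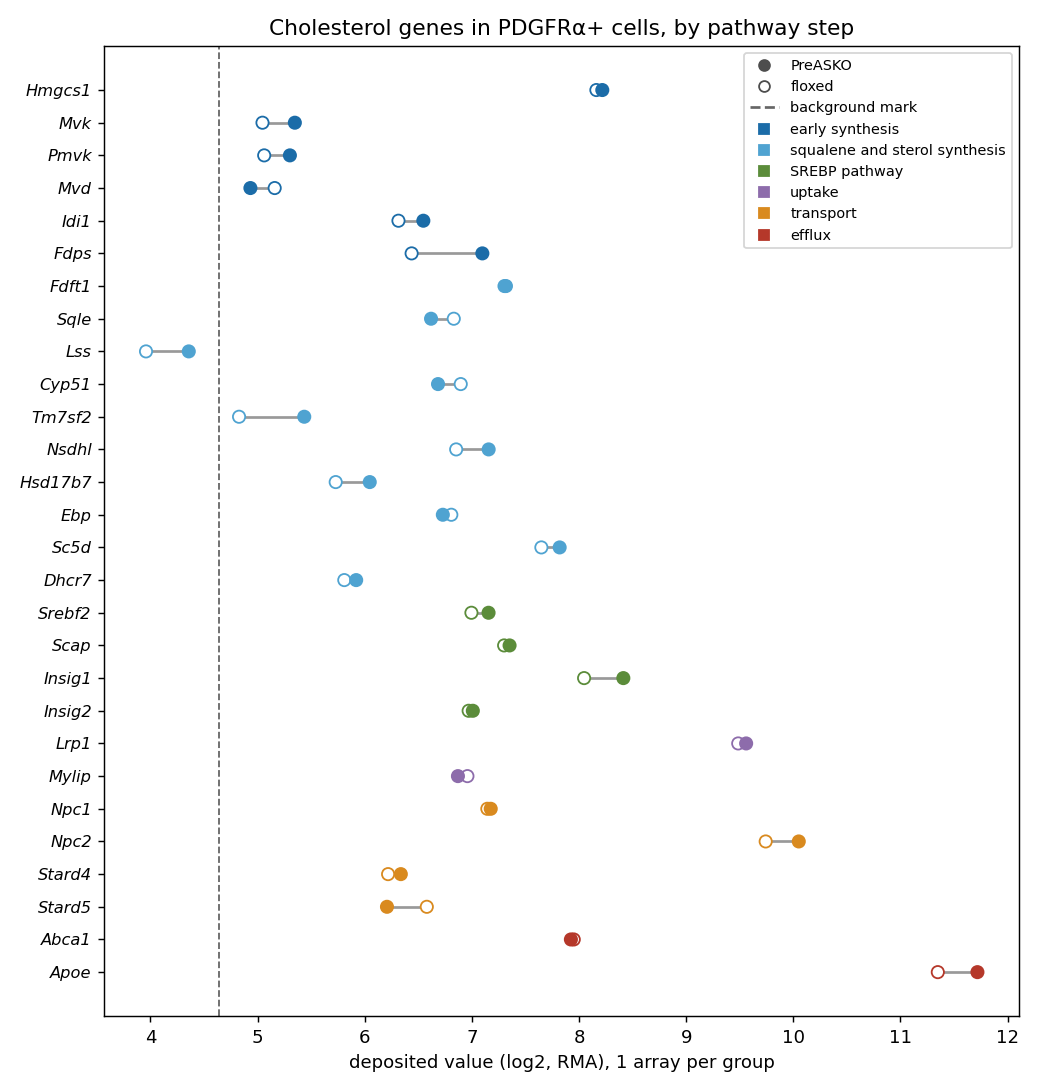
Deposited log2 values (x axis) of the 28 measured cholesterol genes in the PreASKO array (filled) and the floxed array (open), in the order of the pathway and coloured by role. The dashed line is the background mark of 4.64, and Lss is the only gene below it in both arrays.

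The early steps carry acetyl-CoA to farnesyl diphosphate, the branch point of the isoprenoid pathway. Fdps, which makes farnesyl diphosphate, had the largest difference of all members. It was at 7.10 in PreASKO and 6.44 in floxed cells, a difference of 0.66 or 1.58-fold, and both values lay well above background. This difference stood at percentile 99.02 of all genes. The steps before it differed less and not in one direction. Hmgcs1, the synthase that forms HMG-CoA, was nearly level at 8.22 in PreASKO and 8.16 in floxed cells. The kinases that phosphorylate mevalonate stepwise, Mvk and Pmvk, were higher by 0.30 and 0.24. Mvk was at 5.35 in PreASKO and 5.05 in floxed cells, and Pmvk at 5.30 in PreASKO and 5.06 in floxed cells. Mvd, whose decarboxylase makes the first isoprenoid unit, went the other way, at 4.93 in PreASKO and 5.16 in floxed cells, a difference of -0.23. These 3 genes were dim: each of their values was under 5.43, the level that only 1% of the olfactory receptor genes exceeded in the floxed array. Idi1, the isomerase of that unit, was at 6.55 in PreASKO and 6.31 in floxed cells, a difference of 0.23. Its dimmer probe set differed by 0.19, in the same direction. Over the 6 measured genes of these early steps, 5 were higher and 1 lower, with a median difference of 0.24.

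The later steps join farnesyl units into squalene and turn squalene into cholesterol. Here 7 of 10 genes were higher and 3 lower, with a median difference of 0.14. Fdft1, squalene synthase and the first enzyme committed to sterols, was level at 7.32 in PreASKO and 7.30 in floxed cells, and its dimmer probe set held the same value of 6.36 in both arrays. Fdps and Fdft1, neighbours in the pathway, therefore differed by 0.66 and 0.01. Sqle, the squalene epoxidase that is a control point of sterol synthesis, was at 6.62 in PreASKO and 6.83 in floxed cells, a difference of -0.21. Cyp51, the demethylase that acts on lanosterol, was at 6.68 in PreASKO and 6.90 in floxed cells, also -0.21. Lss, which closes the sterol rings, read 4.36 in PreASKO and 3.96 in floxed cells, but both values were below background and give no fold.

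The reductase gene Tm7sf2, which acts after Cyp51, was the other member past the limit. It was at 5.44 in PreASKO and 4.83 in floxed cells, a difference of 0.61 or 1.52-fold. Its floxed value was just above the background mark of 4.64 and under 5.43, so the fold rests on a dim probe set. Next in the pathway, Nsdhl and Hsd17b7 encode enzymes that work together to remove methyl groups from the sterol. Nsdhl was at 7.16 in PreASKO and 6.85 in floxed cells, and Hsd17b7 at 6.05 in PreASKO and 5.73 in floxed cells. Their differences of 0.30 and 0.32 were close to each other and just under the limit of 0.32. The last enzymes differed less. Ebp, the sterol isomerase, was at 6.73 in PreASKO and 6.81 in floxed cells. Sc5d, a sterol desaturase, was at 7.82 in PreASKO and 7.65 in floxed cells. Dhcr7, the reductase that yields cholesterol, was at 5.92 in PreASKO and 5.81 in floxed cells. Among the 16 measured enzymes of the whole route 12 were higher and 4 lower, with a median of 0.20. With values below background raised to it, Lss became 0 and the median of the later steps 0.06.

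**Figure D2:**
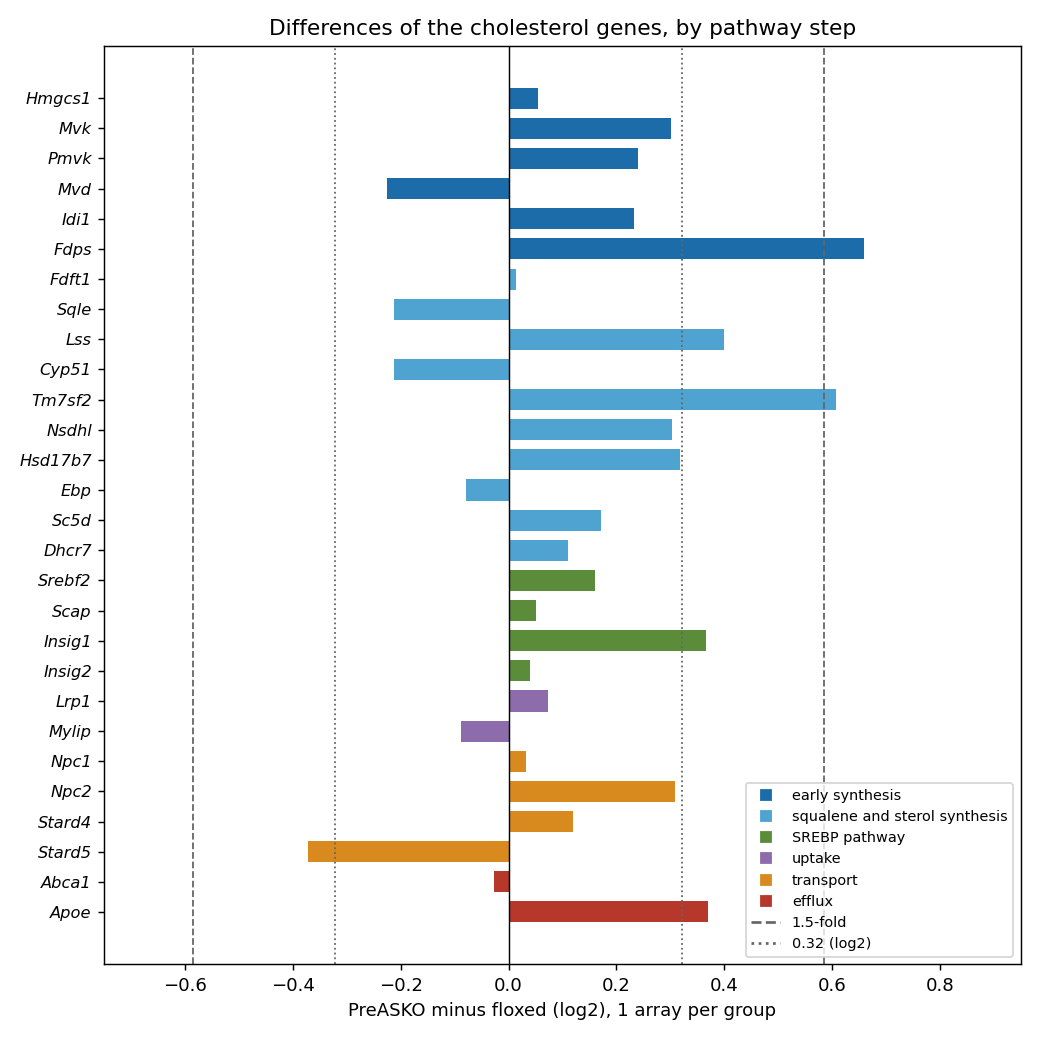
Difference PreASKO minus floxed (x axis, log2) of each measured cholesterol gene, in the order of the pathway and coloured by role, with the limits of 1.5-fold (dashed) and 0.32 (dotted). Fdps at 0.66 and Tm7sf2 at 0.61 pass 1.5-fold, and Stard5 at -0.37 is the lowest.

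The genes that sense sterol and set the pathway's activity were all on the higher side, by small amounts except for Insig1. Srebf2, the gene of SREBP2, was at 7.16 in PreASKO and 7.00 in floxed cells, a difference of 0.16. Scap, its escort, was at 7.35 in PreASKO and 7.30 in floxed cells. Insig1, an anchor that holds SCAP back and is itself an SREBP target, was at 8.41 in PreASKO and 8.05 in floxed cells, a difference of 0.37 or 1.29-fold. Its relative Insig2 was level, at 7.01 in PreASKO and 6.97 in floxed cells. The well-known SREBP2 targets thus stood apart from each other: Insig1 and Fdps were higher, Hmgcs1 and Fdft1 level, and Sqle and Cyp51 slightly lower. Over 19 measured genes known as SREBP2 targets (the enzymes, Insig1, Srebf2 and Stard4), 15 were higher and 4 lower.

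The promoters of 2 higher members (Tm7sf2 and Insig1), a level one (Hmgcs1) and a lower one (Cyp51) are shown, chosen after their values were seen, because SREBP2 acts with the factors NF-Y and Sp1 at promoters of this pathway. Sequences are from RefSeq, GRCm38.p6, 250 bases before to 50 after the gene start, 5′ to 3′ on the gene's strand. Capitals mark matches on either strand to the SRE-like motif TCACNCCAC, the NF-Y motif CCAAT and the Sp1 motif GGGCGG. The Tm7sf2 promoter lies at chr19:6067801-6068100 on the minus strand, that of Insig1 at chr5:28071162-28071461 on the plus strand, that of Hmgcs1 at chr13:119690101-119690400 on the plus strand and that of Cyp51 at chr5:4104648-4104947 on the minus strand.
Tm7sf2: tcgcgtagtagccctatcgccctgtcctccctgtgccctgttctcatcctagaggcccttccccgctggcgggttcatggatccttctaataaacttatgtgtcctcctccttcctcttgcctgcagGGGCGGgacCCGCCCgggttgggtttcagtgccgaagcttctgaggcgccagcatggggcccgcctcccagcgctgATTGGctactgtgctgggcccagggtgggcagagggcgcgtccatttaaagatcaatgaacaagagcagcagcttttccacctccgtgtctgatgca
Insig1: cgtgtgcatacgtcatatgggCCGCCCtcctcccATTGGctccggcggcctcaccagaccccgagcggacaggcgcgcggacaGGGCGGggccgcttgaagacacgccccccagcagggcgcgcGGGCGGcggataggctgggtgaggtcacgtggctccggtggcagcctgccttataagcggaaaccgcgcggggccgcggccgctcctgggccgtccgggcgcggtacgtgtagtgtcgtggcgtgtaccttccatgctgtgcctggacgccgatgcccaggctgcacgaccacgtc
Hmgcs1: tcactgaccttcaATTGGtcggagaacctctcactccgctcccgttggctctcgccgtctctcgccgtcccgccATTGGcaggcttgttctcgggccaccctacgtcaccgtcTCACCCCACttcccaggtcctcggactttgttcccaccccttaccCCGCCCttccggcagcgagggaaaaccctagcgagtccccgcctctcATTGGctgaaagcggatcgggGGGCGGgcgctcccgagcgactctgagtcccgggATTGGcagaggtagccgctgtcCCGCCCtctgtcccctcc
Cyp51: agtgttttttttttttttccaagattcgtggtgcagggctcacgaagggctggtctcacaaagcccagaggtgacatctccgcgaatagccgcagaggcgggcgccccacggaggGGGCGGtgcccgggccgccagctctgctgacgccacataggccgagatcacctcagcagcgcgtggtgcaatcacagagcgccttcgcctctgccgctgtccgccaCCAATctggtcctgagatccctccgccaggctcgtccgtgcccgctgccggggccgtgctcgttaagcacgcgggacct

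These 4 promoters, chosen after their values were seen, cannot show whether motif content goes with the expression differences. Hmgcs1, which was level, held 1 SRE-like, 4 CCAAT and 3 GGGCGG matches. Tm7sf2 and Insig1, which were higher, held 1 CCAAT match each, with 2 and 3 GGGCGG matches, and Cyp51, which was slightly lower, held 1 CCAAT and 1 GGGCGG match. Of the 30 genes 25 had an entry in the promoter table, Fdps not among them, counting a gene when any of its listed promoters held a match. CCAAT was found in 13 of 14 synthesis enzymes (92.9%), against 42.3% of 17492 protein-coding genes. It was found in 3 of 5 genes of transport, efflux and storage. GGGCGG was found in 13 of 14 enzymes, against 49.2% of protein-coding genes, and in 4 of those 5 genes. The SRE-like motif was found in 1 of 25 genes, Hmgcs1, against 1.41% of protein-coding genes. Only exact matches to this pattern were counted, so a gene without a match may still hold an SRE of other letters. The median GC content of the promoters was 61.3% in these genes and 56.3% in protein-coding genes, which bears on a motif made of G and C. No overlap between matches to different motifs was removed, and a match is a description of letters.

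Uptake of lipoprotein cholesterol was represented by a receptor and by a ligase that removes receptors. Lrp1, a large endocytic receptor that binds apolipoprotein E, was at 9.56 in PreASKO and 9.49 in floxed cells. Mylip, an LXR-induced ligase that marks the LDL receptor for degradation, was at 6.87 in PreASKO and 6.96 in floxed cells. Both differences, 0.07 and -0.09, were within the quartiles of all genes.

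Genes that move cholesterol inside and out of the cell did not share a direction. Npc2, the soluble lysosomal protein that hands cholesterol to NPC1, was at 10.05 in PreASKO and 9.74 in floxed cells, a difference of 0.31. Its partner Npc1 was level, at 7.18 in PreASKO and 7.14 in floxed cells. The sterol carrier gene Stard4 was at 6.34 in PreASKO and 6.22 in floxed cells, whereas its relative Stard5 was at 6.21 in PreASKO and 6.58 in floxed cells. The Stard5 difference of -0.37 (1.29-fold) was the lowest of all members, so this pair of carriers differed in opposite directions. Abca1, the exporter, was at 7.92 in PreASKO and 7.95 in floxed cells. Apoe, which accepts exported cholesterol and carries it on lipoproteins, was at 11.72 in PreASKO and 11.35 in floxed cells, a difference of 0.37 or 1.29-fold.

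Synthesis, regulation and uptake genes were set against transport and efflux genes. The first side had a median difference of 0.14 over 22 measured genes, 17 of them higher. The second side had a median of 0.08 over 6 genes, 4 of them higher. The gap between the medians was 0.06, and 0.02 with values below background raised to it. Grouped by regulator instead, the SREBP2 targets had a median of 0.17 and the 3 LXR targets Abca1, Apoe and Mylip a median of -0.03. With only 3 genes, of which Apoe was higher by 0.37 and the others were within 0.10 of 0, that second median is the value of Abca1.

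**Figure D3:**
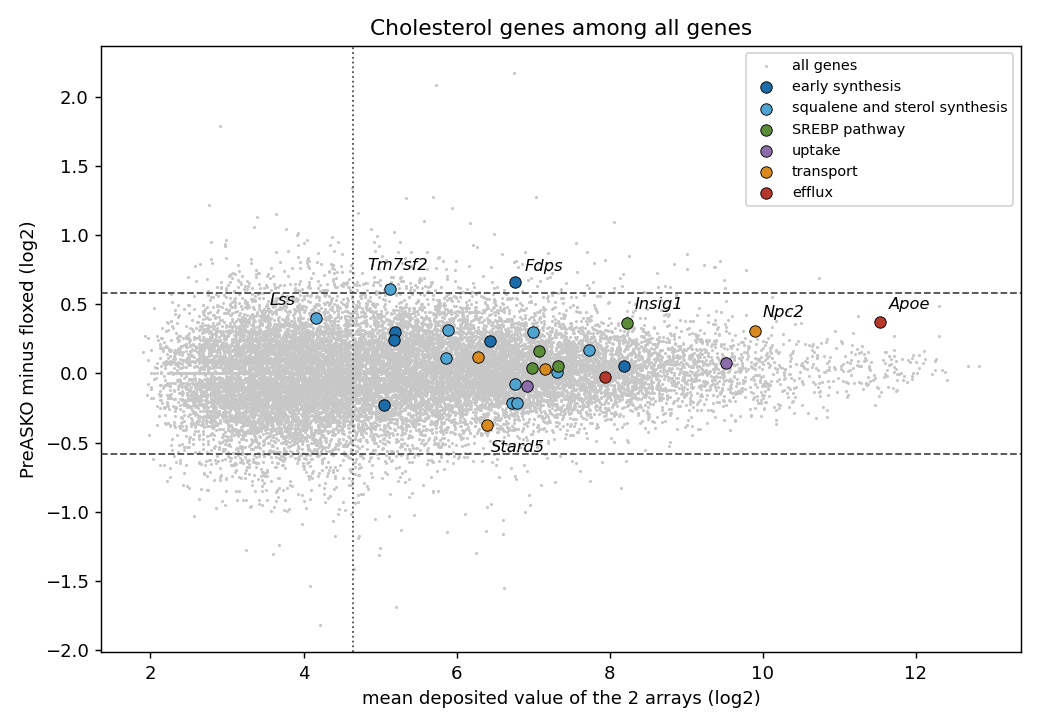
Difference PreASKO minus floxed (y axis, log2) against the mean value of both arrays (x axis, log2) for all 19938 genes (grey) and the cholesterol genes (coloured by role), with the 1.5-fold limits (dashed) and the background mark (dotted). Fdps and Tm7sf2 lie just outside the limits, and the other members lie within the band of grey points.

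Other genes of the pathway were described from lists written for this purpose, and none of their measured members passed 1.5-fold. Over all genes only 3.64% passed it in either direction, so finding none in lists this short is a description only. Among genes of SREBP processing and sterol sensing, 2 of the 4 with a value were higher and 2 lower. Erlin2, an endoplasmic reticulum protein that restrains SREBP activation, was at 7.47 in PreASKO and 7.90 in floxed cells. Rnf139, a ligase of the same membrane, differed by 0.27, and Mbtps1, the protease that makes the first cut in SREBP, by -0.11. Beyond farnesyl diphosphate, the isoprenoid branch had a median of 0.04 over 7 genes. Coq2, an enzyme of ubiquinone synthesis, was at 6.32 in PreASKO and 5.85 in floxed cells, and Ggps1, which makes geranylgeranyl diphosphate from the product of Fdps, was at 7.08 in PreASKO and 7.21 in floxed cells. The higher level of Fdps was thus next to a level Fdft1 on the sterol side and a slightly lower Ggps1 on the other side.

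In the list of the LXR axis and ester handling, 8 of 11 genes were higher and 3 lower, with a median of 0.15. By at least 0.32, 4 (36.4%) were higher, against 9.46% of all genes and 9.69% of the 9969 brighter genes. The list was written with earlier results of these data known, so this share is only a description. Pltp, a phospholipid transfer protein, was at 9.78 in PreASKO and 9.25 in floxed cells, and Nr1h3, the gene of LXRα, at 5.40 in PreASKO and 4.97 in floxed cells. Scarb1, a receptor for high-density lipoprotein, differed by 0.42 and Osbp, an oxysterol-binding transfer protein, by 0.415. Nr1h3 in both arrays and Scarb1 in floxed cells, at 5.05, were under 5.43, so their differences rest on dim probe sets. On the lower side were Abcg1, an exporter gene (-0.21), and Lpl, the lipoprotein lipase gene (-0.16). Ch25h, which makes an oxysterol, was below background in both arrays.

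Markers of other cells moved between the same arrays. Of 18 macrophage markers 17 were higher in PreASKO, with a median difference of 0.46, and Cx3cr1 was lower. Summed on the linear scale these 18 markers reached 12549 in PreASKO and 8848 in floxed cells, and none was below background. The macrophage markers ran from -0.60 to 0.81. Macrophages can also express genes of the cholesterol and LXR lists, and these lists did not move in one direction. Apoe (0.37), Npc2 (0.31), Nr1h3 (0.44) and Pltp (0.52) were among the higher genes. Npc1 (0.03), Abca1 (-0.03), Abcg1 (-0.21) and Lpl (-0.16) were among those that were level or lower. Which of the listed genes the macrophages in these pools expressed was not measured. The labels call the cells PDGFRα+ and name no step that removed macrophages by a marker of their own. Of 14 measured markers of dividing cells all were lower, by a median of -1.08, with linear sums of 483 in PreASKO and 991 in floxed cells. Among them Plk1, Bub1, Bub1b, Tpx2 and Prc1 were below background in the PreASKO array. With values below background raised to it, the median of these markers was -0.94. The 9 stromal markers had a median of -0.05, with 2 higher and 7 lower, Pdgfra itself by -0.31. Of 7 measured adipocyte markers 4 lay below background in both arrays, Adipoq, Cidec, Lep and Retn. Their part in the cholesterol gene differences was not tested, and in pooled RNA a different share of a cell type cannot be told apart from a different amount of RNA per cell.

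**Figure D4:**
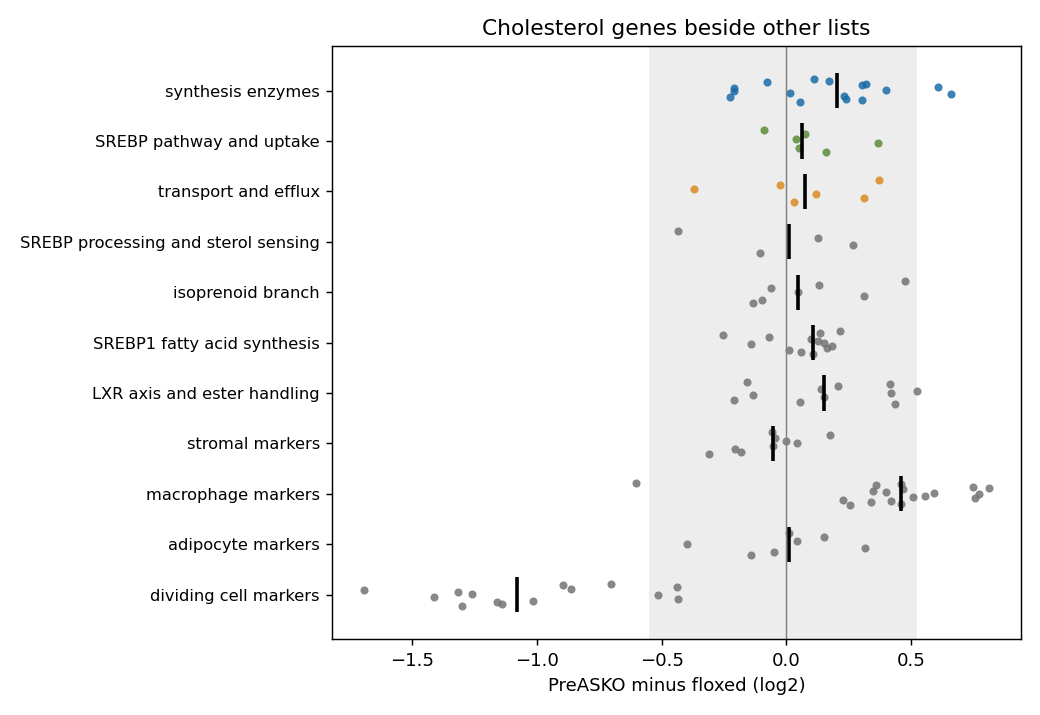
Difference PreASKO minus floxed (x axis, log2) of each gene of the cholesterol lists (coloured), the other pathway lists and the cell type markers (grey), with the median of each list as a black bar. The shaded band is the middle 95% of all genes, from -0.55 to 0.52. The synthesis enzymes have a median of 0.20, the macrophage markers 0.46 and the markers of dividing cells -1.08.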

How the data were processed

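Per the submitters' processing notes the authors used RMA to make 1 value per probe set, and the deposited values are taken as log2 because they run from 1.23 to 13.8. RMA corrects background, which can lessen true differences of dim genes, and makes distributions alike, which removes any change shared by most genes. Dim values still varied between these arrays. At the 1.5-fold limit 12 of 1027 olfactory receptor genes were higher and 60 lower. Among the 9969 brighter genes these counts were 161 and 107. By at least 0.32 on the log2 scale 8.76% of the olfactory receptor genes were higher and 17.6% lower. For the brighter genes these shares were 9.69% and 6.33%. The median difference was -0.08 in the olfactory receptor genes and 0.02 in the brighter genes, so the dim genes leaned to lower values in PreASKO. A fold from a dim probe set is therefore not a cautious estimate. The arrays correlated with r = 0.982 over 35556 probe sets. Precision is limited by having 1 array per group. Genes were named from the platform annotation, which can be old. The 21789 probe sets with exactly 1 gene gave 19938 genes, and the probe set with the higher mean was used for the 999 genes with several. Cross-hybridisation with related sequences was not examined. All 30 members are named, and up to 3 genes per direction from the context lists, with a value of at least 5.18 in 1 array (the level floor, reached by the brighter array of 9969 genes); Osbp, Abcg1, Ch25h, Srebf1, Fasn and the markers were named in addition. Members, lists and limits were chosen with earlier results of these data known. Promoters came from RefSeq. In all 1892 overlapping pairs on opposite strands the sequences were reverse complements. The steps were tested on simulated data. Python 3.11.15, pandas 2.3.3, numpy 2.4.6, statsmodels 0.14.6 and matplotlib 3.10.9 were used.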

Additional observations from a re-analysis of the deposited data

How the results depend on the processing

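The count of 2 members 1.5-fold higher and 0 lower was the same with the mean over probe sets, loess (span 0.3), quantile normalization, centring, values raised to background and the level floor of 5.18. Several of these settings could not change the 2 calls. The median over all genes was already 0, so centring changed nothing. Fdps and Tm7sf2 have 1 probe set each and lay above background in both arrays. Tm7sf2 reached the level floor only in the PreASKO array, where it was higher. Only loess and quantile normalization could move the differences of these 2 genes. At 2-fold the count of higher members was 0, and at a log2 limit of 0.32, 5 were higher and 1 lower. The median of the members ran from 0.09 to 0.11 and that of the enzymes from 0.14 to 0.20 over these settings. The gap between synthesis and transport medians was 0.06, but 0.02 with values raised to background, where Lss becomes 0 by construction. With sides drawn by known SREBP2 and LXR targets the second median was -0.0268 and the gap 0.20, because different genes make up the sides. Lss was the only one of the 28 members whose own difference moved by 0.1 or more. No paired analysis was possible because with 1 array per group there are no pairs, and no replicate could be left out. Dim values limit Tm7sf2, Mvk, Pmvk, Mvd and Lss, the 5 members with a value under 5.43.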

Other observations

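Fatty acid synthesis, the arm of lipid supply driven by SREBP1, is described here beside the cholesterol genes. All 13 listed genes had a value above the level floor of 5.18, and 10 were higher in PreASKO and 3 lower. None differed by 0.32 or more on the log2 scale, where 9.46% of all genes were higher and 9.86% lower by that limit. Among the 9969 genes that reached the floor 9.69% were higher and 6.33% lower by it. The median difference of the 13 genes was 0.11, close to that of the cholesterol genes (0.11). Srebf1, the gene of SREBP1, was at 6.07 in PreASKO and 5.96 in floxed cells, and Fasn, fatty acid synthase, at 6.31 in PreASKO and 6.25 in floxed cells. The most positive differences were those of Mid1ip1 (0.22), a regulator of fatty acid synthesis, Scd1 (0.18), a desaturase, and Acly (0.16), which supplies acetyl-CoA to both pathways. Acss2, which makes acetyl-CoA from acetate, had the most negative difference (-0.26), at 5.33 in PreASKO and 5.59 in floxed cells. Cholesterol synthesis genes spanned a wider range, from -0.23 to 0.66, than fatty acid synthesis genes, from -0.26 to 0.22, with 1 array per group and no test of that difference.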
